A study of Homo sapiens with 11 samples.

Results

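The comparison described here sets the array of MDA-MB-231 cells given free estradiol against the first of 2 untreated control arrays, which is 2 of the 11 arrays measured. The pair was chosen because both arrays belong to a set of 3 in which the poly-A spike-in transcripts, RNAs added to a sample before labelling, gave high values. The third member of that set is the first E2-BSA array. The other 8 arrays gave low spike-in values. There was 1 array on each side, so the difference itself has no replicate check, and no p-value belongs to it.

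MDA-MB-231 cells were grown from a human breast cancer and are mesenchymal-like, with little or no estrogen receptor alpha. The estradiol group received 1 µM estradiol for 3 hours. The E2-BSA group, with 2 arrays, received 1 µM estradiol coupled to bovine serum albumin, a carrier protein that keeps the hormone largely outside the cell, for the same time. A pair of further arrays carried E2-BSA with 10 µM of an antagonist, either ICI, which the labels do not expand, or G15, a blocker of the membrane estrogen receptor GPER, and each antagonist was also given alone at 10 µM. The remaining groups were 1 µM BSA, 0.1% ethanol, which the labels name as the vehicle of estradiol, and the untreated control, with 2 arrays. All cells, controls included, had first spent 4 hours in medium with 10% charcoal-stripped serum, which is depleted of steroid hormones. The labels do not say whether the estradiol array also received ethanol. Nothing in the labels says whether the arrays came from separate cultures, and the 1 ethanol array lies in the set of 8, so estradiol has a control but no vehicle within its own set.

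Estradiol enters cells freely and acts mainly through the nuclear receptors estrogen receptor alpha and beta, which bind DNA at estrogen response elements and, over hours, raise genes such as TFF1, GREB1 and PGR. It can also act at the membrane through GPER, which is linked to cAMP, the EGF receptor and the ERK kinases, and whose early readout is a burst of immediate early genes such as FOS and EGR1. Cells without estrogen receptor alpha are used to look at this second route.

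The values are log2 signals that were centred for each probe set before deposit, so a value says how far an array lies above or below that probe set's own middle, and levels of different genes cannot be compared. The mean of 24 poly-A spike-in probe sets was 1.58 on the estradiol array, 1.40 on the first E2-BSA array and 1.62 on the first control array, and between -0.56 and 0.10 on the other 8. Estradiol minus first control had a median of -0.04 over the poly-A spike-ins (range -0.27 to 0.22) and 0.07 over 18 hybridisation spike-ins, so the pair was close in both. The 3′ minus 5′ signal of ACTB, a gauge of RNA integrity, was -0.28 on the estradiol array, -0.15 on the first E2-BSA array and -0.31 on the first control array. On the other 8 it ran from -0.17 to 0.35. For GAPDH it was -0.04, -0.07 and -0.07 in the same order, and -0.15 to 0.08 on the other 8. Each probe set was centred on its own, so these values only compare arrays and do not measure integrity itself.

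Across 19775 genes the estradiol array and the first control array were nearly alike. The median difference was -0.01 on the log2 scale, the SD over genes was 0.24, and 90% of the genes lay between -0.41 and 0.36. A log2 difference of 1, a 2-fold difference, was passed by 20 genes that were higher with estradiol (0.101% of all genes) and by 24 that were lower (0.121%). A 1.5-fold difference was passed by 239 genes upward (1.21%) and 326 downward (1.65%). All 44 genes past a log2 difference of 1 are read by 1 probe set each, although 10523 of the 19775 genes have 2 or more. After quantile normalization over all 11 arrays 0 genes were past 1, and against the second control array, of the other set, 1025 were. The SD of the difference was 0.29 over genes with 1 probe set, 0.21 over genes with 2 and 0.16 over genes with 3 or more.

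**Figure D1:**
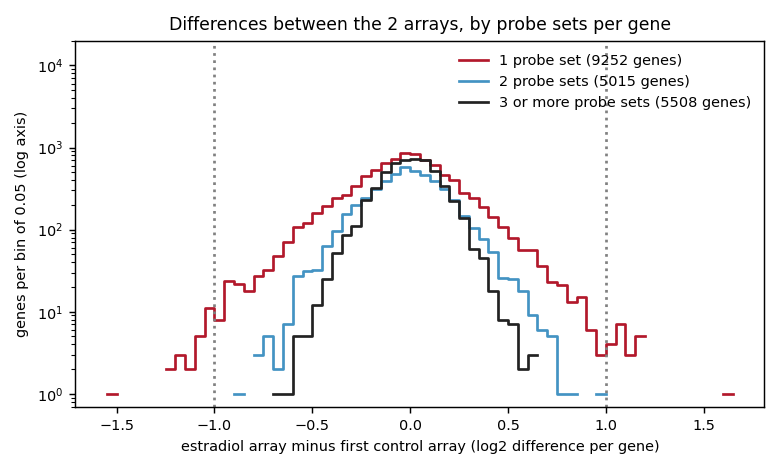
Histogram of the log2 difference between the estradiol array and the first control array for 19775 genes, with the number of genes per bin on a log axis and 1 line for each class of probe sets per gene. All 44 genes beyond the dotted lines at -1 and 1 have 1 probe set, and the SD narrows from 0.29 with 1 probe set to 0.16 with 3 or more.

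Genes with several probe sets allow the same transcript to be read more than once on the same 2 arrays. Among them, 60 probe sets were past a log2 difference of 1 upward, and for each the other probe sets of the same gene were averaged. These averages had a median of 0.08, and 0 were past a 1.5-fold difference. Of the 60, 39 were on the same side, where 48.3% of all genes were higher. Downward, the count was 61 probe sets, with a median of -0.05 for the averages of their partners and 1 past a 1.5-fold difference. On the same side were 44 of the 61, where 51.6% of all genes were lower. A large difference at 1 probe set was thus seldom repeated in size by the average of that gene's other probe sets.

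The largest difference of all belonged to SLC16A14, an orphan member of the monocarboxylate transporter family. Its value was 1.77 on the estradiol array, 0.57 on the first E2-BSA array and 0.14 on the first control array, a log2 difference of 1.64 between estradiol and first control, while the other 8 arrays lay between -0.49 and 0.13. The estradiol array was the highest of all 11 for this gene. Among the higher genes, next came 5 with differences between 1.16 and 1.18. SMIM31, which encodes a small membrane protein, stood at 2.40 with estradiol and 1.22 in the first control, a difference of 1.18, but the first E2-BSA array also read 2.01. MSS51 differed by 1.18, ENTPD3-AS1 by 1.18, GS1-279B7.1 by 1.18 and ZNF137P by 1.16. For MSS51 the first control array was the lowest of all 11 (-1.14), followed by the first E2-BSA array (-0.38). The estradiol array (0.04) lay within the range of the other 8 (-0.12 to 0.18). ENTPD3-AS1 had 0.86 with estradiol, 0.52 with E2-BSA and -0.32 in the first control. The first control lay within the range of the other 8 arrays (-0.42 to 0.06), and both hormone arrays lay above it.

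The lowest gene was SOST, which encodes sclerostin, a secreted WNT inhibitor of bone. It had 0.15 on the estradiol array, 0.23 on the first E2-BSA array and 1.66 on the first control array, a difference of -1.51 for estradiol against the first control. Both hormone arrays were low and near the other 8 arrays (-0.42 to 0.27), and the control stood alone. The chemokine gene CXCL10, an attractant of T cells, had 0.63 with estradiol, 1.03 with E2-BSA and 1.88 in the first control (difference -1.24). CCL20, the ligand of CCR6, had 0.54 with estradiol, 1.25 with E2-BSA and 1.60 in the first control (difference -1.06). In both chemokine genes the estradiol array was the lowest of the 3 and the E2-BSA array lay between. ALDH3A1, an aldehyde dehydrogenase, differed by -1.18, the collagen gene COL9A3 by -1.23, HYPK, a chaperone partner of the N-terminal acetylation complex, by -1.17, and LINC02493 by -1.16. Of the 44 genes, 31 were protein coding (70.5%, against 83.5% of all genes), 10 were noncoding RNAs or other entries and 3 were pseudogenes. The line at 1 cuts through a continuum: KCND1 (1.001), LOC105372255 (-1.0037) and PCDHA10 (-1.0046) lay just inside it, and LINC01282 (-0.9956), ZNF804B (0.9839) and TG (-0.9791) just outside.

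Of the 10523 genes with 2 or more probe sets, 3781 had probe sets that all differed the same way, and their largest differences were smaller. The genes that follow were chosen by this agreement, so the agreement itself is not a result. EGLN3, a prolyl hydroxylase that marks hypoxia-inducible factor for degradation, had 1.25 on the estradiol array, 0.84 on the first E2-BSA array and 0.42 on the first control array. Its difference of 0.84 came from 2 probe sets that read 0.82 and 0.86. POLQ, a DNA polymerase of end-joining repair, had the largest mean difference of this class at 0.95, but its 2 probe sets read 0.24 and 1.66. BMP2, a growth factor of the TGF-beta family, had 1.34 with estradiol, 1.35 with E2-BSA and 0.60 in the first control (difference 0.75), so both hormone arrays were alike and the control was lower. The same order of arrays was seen for ADAMTS1, a secreted metalloprotease, with -0.22 with estradiol, -0.11 with E2-BSA and -0.90 in the first control. LUM, which encodes the matrix proteoglycan lumican, was instead high on the estradiol array only, with 1.06 against 0.39 on the first E2-BSA array and 0.39 on the first control array. The 2 probe sets of ZNF557, a zinc finger gene (difference 0.73), read 0.68 and 0.78, and those of SMIM2 (difference 0.70) read 0.70 and 0.71. Without probe sets named _x_at or _s_at, the difference fell from 0.68 to 0.31 for LUM and from 0.75 to 0.43 for BMP2. It stayed at 0.95 for POLQ and 0.73 for ZNF557, and was 0.71 for SMIM2.

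Downward, SNCG, which encodes gamma-synuclein, had -0.40 on the estradiol array, 0.18 on the first E2-BSA array and 0.49 on the first control array (difference -0.89). HSP90B1, the endoplasmic reticulum chaperone GRP94, had -0.57 with estradiol, -0.10 with E2-BSA and 0.16 in the first control (difference -0.73), and its 2 probe sets read -0.75 and -0.71. Over the other 8 arrays HSP90B1 ran between -1.39 and 0.72, wider than the whole set of 3. RSAD2, an antiviral enzyme induced by interferon, had 0.08 with estradiol, 0.65 with E2-BSA and 0.83 in the first control (difference -0.75). CXCL12, a chemokine that estrogen raises in receptor-positive breast cancer cells, had -0.30 with estradiol, -0.05 with E2-BSA and 0.38 in the first control (difference -0.69). In all 4 genes the estradiol array was the lowest of the set. TNFSF15, a TNF family ligand, had 1.47 with estradiol, 0.92 with E2-BSA and 2.15 in the first control, and its 2 probe sets read -1.30 and -0.07. Against the second control array, which lies in the other set, 8 of these 24 genes had the opposite sign, POLQ (-0.48), ADAMTS1 (-0.39), RSAD2 (0.21) and TNFSF15 (1.75) among them, as had 5 of the 44 genes, SOST (0.47), CXCL10 (1.05) and CCL20 (0.88) among them, and 7923 of all 19775.

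**Figure D2:**
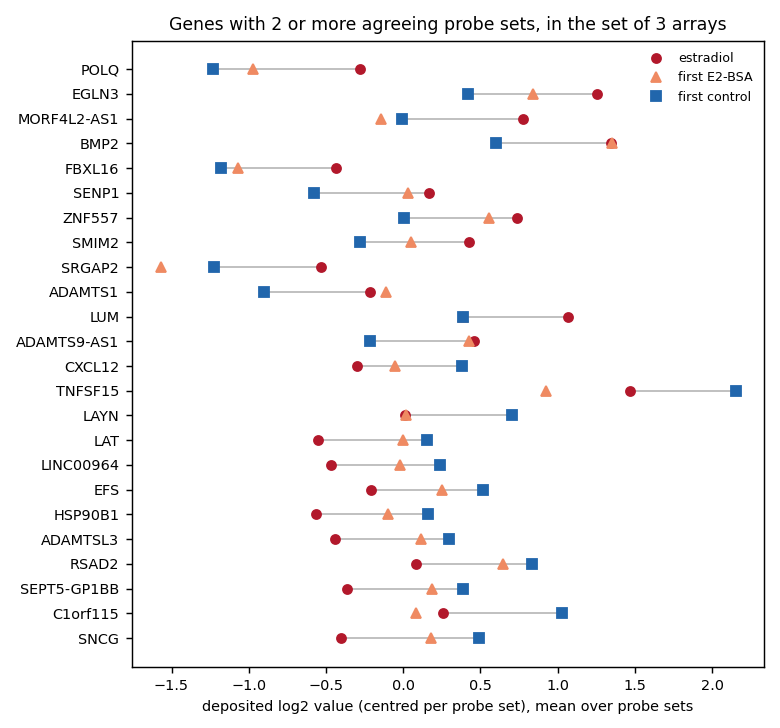
Deposited log2 values, averaged over probe sets, on the estradiol array (circles), the first E2-BSA array (triangles) and the first control array (squares) for the 12 highest and 12 lowest genes whose 2 or more probe sets all differed the same way; grey lines join estradiol and first control. BMP2 and ADAMTS1 show both hormone arrays apart from the control, while LUM and RSAD2 show the estradiol array apart.

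Because the first control array enters every difference above, the first E2-BSA array was used to see which array of the set stood apart. By over 1 on the log2 scale from both others, the estradiol array stood above for 4 genes (0.0202% of all genes) and below for 3 (0.0152%). The first 4 were SLC16A14, SPMIP6, GPRASP1 and FOXR2, and the other 3 were LINC02493, SOAT2, which makes cholesterol esters, and the transcriptional cofactor gene ZFPM2. GPRASP1, which sorts G protein-coupled receptors for degradation, had 1.19 on the estradiol array, -0.24 on the first E2-BSA array and 0.10 on the first control array. SOAT2 had -0.76 with estradiol, 0.66 with E2-BSA and 0.26 in the first control. The first control array stood apart for 6 genes, above for SOST, COL9A3 and C16orf89 and below for ZNF835, PLIN4 and KCND1. These 6 of the 44 differences were thus shared past 1 by both hormone arrays. The first E2-BSA array stood apart for 31, above for 10 (0.0506%) and below for 21 (0.106%), and the shares for the first control array were 0.0152% each way. At a 1.5-fold distance the counts were 153 for the estradiol array, 291 for the first E2-BSA array and 152 for the first control array.

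Over the 20 higher genes the first E2-BSA array minus the estradiol array had a median of -0.51, and over the 24 lower genes a median of 0.52. These 2 comparisons share the estradiol array, and the members were chosen on its values, so the opposite signs are given as a description. First E2-BSA minus first control had a median of 0.56 over the 20 higher genes, with 18 higher. Over the 24 lower genes it was -0.52, with 22 lower, where 50.5% of all genes were lower. The first control array was also used to choose the genes, so these values too are a description. In the 3 E2-BSA pairs that share no array with the comparison, the 44 genes showed little. The medians of the 20 higher genes were -0.02 in the second E2-BSA against the second control, 0.09 in E2-BSA+ICI against ICI and -0.11 in E2-BSA+G15 against G15, with 0 genes past a log2 difference of 1 and 2 of 20 higher in all 3, where 1909 of all 19775 genes were. The 24 lower genes had medians of -0.01, -0.08 and -0.14 in the same pairs, again with 0 past 1, and 4 of 24 were lower in all 3, where 2989 of all 19775 genes were. Over all 19775 genes the share past 1 in either direction was 0% in the first of these pairs, 0.00506% in the second and 1.35% in the third, and those medians were 0.03, -0.01 and -0.08.

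A test of the estradiol effect needs a measure of spread, which only a fit over all 11 arrays gives. The limma fit had terms for ethanol, estradiol, E2-BSA, ICI, G15 and BSA and for the set of arrays, with 3 residual degrees of freedom, and estradiol is represented in it by its 1 array. Within the set of 3, the fit compares that array with the first control and first E2-BSA arrays together, not with the first control alone. It called 0 of 19775 genes for estradiol against control after Benjamini-Hochberg adjustment (0%), and 1397 had an unadjusted p under 0.05, with a smallest adjusted p of 0.374. SLC16A14 had the smallest p among the higher genes, with a fitted difference of 1.52 ± 0.18 (SE, limma adjusted p = 0.374). FOXR2, a forkhead factor gene, followed with 1.08 ± 0.14 at the same adjusted p. DGCR6L was lower by a fitted -0.94 ± 0.13, with -0.56 on the estradiol array, 0.27 on the first E2-BSA array and 0.37 on the first control array. None of these passed the threshold of 0.05.

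The genes that estradiol is best known to raise did not stand out. Of 30 classical estrogen receptor alpha targets listed, 27 were measured: 13 were higher with estradiol and 14 lower, where 48.3% of all genes were higher. Their median was -0.04, 0 were past a log2 difference of 1, and limma called 0. TFF1, a secreted trefoil peptide, had 3.20 on the estradiol array, 2.77 on the first E2-BSA array and 3.71 on the first control array. All 3 arrays were far above the other 8 (-0.51 to 0.03), and among them the hormone arrays were the lower ones. The fitted effect of estradiol on TFF1 was -0.10, with a 95% interval from -1.11 to 0.90. GREB1, a coactivator of the receptor, had 0.33 with estradiol, 0.24 with E2-BSA and 0.25 in the first control, and its fitted effect of 0.10 had an interval from -0.22 to 0.43. PGR, the progesterone receptor, had 0.13 with estradiol, 0.16 with E2-BSA and 0.41 in the first control, and a fitted -0.20 with an interval from -0.54 to 0.14. XBP1 was the highest of the list (0.40) and CXCL12 the lowest (-0.69).

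Among 9 receptor genes for estrogen and related steroids, 1 was higher with estradiol and the median was -0.07. ESR1, which encodes estrogen receptor alpha, had -0.13 with estradiol, 0.07 with E2-BSA and -0.08 in the first control. ESRRG, an orphan receptor related to the estrogen receptors, was the lowest at -0.59, with -0.29 with estradiol, 0.01 with E2-BSA and 0.30 in the first control. ESR2 differed by -0.11 and GPER1 by -0.23 (0.08 with estradiol, 0.10 with E2-BSA, 0.31 in the first control). Centred values do not show whether these receptors were expressed. Of 22 genes of estrogen synthesis and breakdown, AKR1C3, a hydroxysteroid dehydrogenase, was the lowest with 2.73 on the estradiol array, 1.95 on the first E2-BSA array and 3.40 on the first control array. CYP1A1 (-0.39) and CYP1B1 (-0.33), which hydroxylate estradiol, followed.

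The exact estrogen response element GGTCANNNTGACC, which reads the same on both strands, was searched in promoters from RefSeq on GRCh38.p14, from 250 bases before to 50 after each gene's start, taking the first entry of each gene. It was present in 18 of 27305 promoters (0.0659%), in 6 of the 15384 that belong to measured genes (median difference 0.22 between estradiol and first control, 2 of 6 lower, against -0.01 without the element), and in 0 of the 33 promoters matched to the 44 genes past a log2 difference of 1.

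The immediate early genes, which growth signals switch on within the first hour, were flat in this pair at 3 hours. Earlier times were not measured. Of 34 measured, 17 were higher and 17 lower with estradiol, the median was 0.00, the range was -0.35 to 0.36, and 0 were past 1. FOS, a partner of JUN in the AP-1 transcription factor, had 1.08 on the estradiol array, 1.29 on the first E2-BSA array and 0.73 on the first control array. EGR1, a zinc finger factor downstream of ERK, had 0.08 with estradiol, -0.17 with E2-BSA and -0.17 in the first control. The 17 genes listed as reported after GPER activation had a median of -0.05, with 8 higher, and ranged from -0.20 to 0.36.

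The vehicle gave another picture against the second control array, which lies in the same set of 8. The 2 arrays were not close in the hybridisation spike-ins, with a mean of 0.77 on the ethanol array and -0.28 on the second control array. On the remaining arrays that mean lay between -0.18 and 0.21. The bearing of this gap on the differences below was not tested. Ethanol minus second control shares no array with the estradiol pair, and in it the same 34 immediate early genes had a median of 0.62, with 29 higher and 8 past a log2 difference of 1, where 59.6% of all genes were higher and 0.298% were past 1. EGR1 had 2.87 on the ethanol array and -0.04 on the second control array. ARC, a synaptic immediate early gene, had 2.47 on the ethanol array and 0.02 on the second control array, against -0.09 on the estradiol array and 0.11 on the first control array. FOS had 2.36 with ethanol and -0.56 in the second control. The contrast of estradiol with ethanol in the fit over all arrays, added after these values were seen, called 2 genes (0 higher and 2 lower with estradiol, 0.0101% of all genes). They were EGR1 at -2.67 ± 0.23 and ARC at -2.71 ± 0.24 (SE, limma adjusted p = 0.0378 for both). FOS was lower by a fitted -2.96 ± 0.34 but did not pass (adjusted p = 0.104), and 29 of the 34 genes were lower with estradiol, with a median of -0.62, where 55.3% of all genes were lower. The estradiol and ethanol arrays lie in different sets, so this contrast reaches across the sets through the 2 control and 2 E2-BSA arrays. Both calls were lost (0 genes) when each array was centred on its median gene and when the second control array or either E2-BSA array was left out, and 1 call was made without the first control array. The 2 called genes rest on 1 array each of estradiol and ethanol, and whether the estradiol array also carried the vehicle is not stated.

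**Figure D3:**
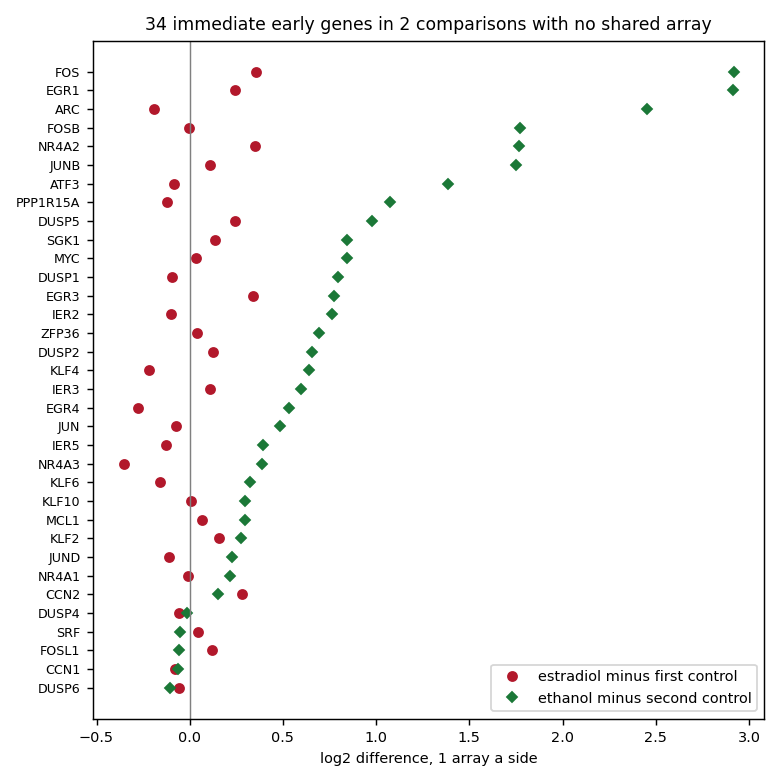
Log2 differences of 34 immediate early genes for estradiol minus first control (circles) and ethanol minus second control (diamonds), 1 array a side, ordered by the ethanol difference. The estradiol differences stay between -0.35 and 0.36, while FOS, EGR1 and ARC differ by 2.92, 2.91 and 2.45 with ethanol.

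The promoter of EGR1 is shown because the gene was called lower with estradiol than with ethanol and carries matches to an element of serum-responsive genes. The stretch is chr5:138465229-138465528 on the plus strand, and capitals mark 2 CArG boxes, the element bound by serum response factor, which were searched on both strands.
EGR1: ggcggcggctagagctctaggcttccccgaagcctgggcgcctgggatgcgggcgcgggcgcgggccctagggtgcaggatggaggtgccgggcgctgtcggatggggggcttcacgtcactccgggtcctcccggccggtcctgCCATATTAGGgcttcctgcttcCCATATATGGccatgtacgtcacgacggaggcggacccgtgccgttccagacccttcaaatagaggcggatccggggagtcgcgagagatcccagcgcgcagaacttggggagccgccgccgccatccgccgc
A CArG box was found in 1.29% of 27305 promoters and in 2 of the 23 immediate early gene promoters matched.

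Of 41 gene lists, 5 had a median beyond 0.1 in either direction in estradiol minus first control, and these were the interferon-stimulated genes, histones, luminal epithelial markers and leukocyte markers on the low side and the G1/S and DNA replication genes on the high side. The medians of all 41 lists lay between -0.18 and 0.12. Interferon-stimulated genes, the antiviral program that STAT and IRF factors switch on, had the lowest: 35 of 40 were lower with estradiol, where 51.6% of all genes were lower, and the median was -0.18. None was past a log2 difference of 1. OASL, a relative of the oligoadenylate synthetases, had 1.04 on the estradiol array, 0.52 on the first E2-BSA array and 1.53 on the first control array, and IRF7, a transcription factor of the same program, had -0.78 with estradiol, -0.88 with E2-BSA and -0.37 in the first control. IFIT1, which binds foreign RNA, had 1.11 with estradiol, 0.14 with E2-BSA and 1.30 in the first control, and ISG15, a ubiquitin-like protein, had 0.01 with estradiol, -0.41 with E2-BSA and 0.38 in the first control. In these 4 genes the first E2-BSA array was lower still than the estradiol array. The list's median value was 0.56 on the estradiol array, 0.28 on the first E2-BSA array, 0.71 on the first control array and between -0.24 and 0.01 on the other 8.

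The interferon list stayed near 0 in the pairs that share no array with this comparison. Its median was 0.00 in second E2-BSA minus second control and -0.01 in both antagonist pairs, and 20 of 40 genes were higher in each of the 3, where the shares of all genes were 57.7%, 46.8% and 34.7%. In first E2-BSA minus first control it was -0.38, with 38 of 40 lower against 50.5% of all genes, and in first E2-BSA minus estradiol -0.31, with 33 of 40 lower against 49.8%. In the fit over all arrays the median for estradiol against control was -0.01, with 19 higher and 21 lower, and limma called 0 of the 40. That fit sets the estradiol array against the first control and first E2-BSA arrays together. For this list the medians of those 2 arrays lay on opposite sides of the estradiol array, so the fitted median does not remeasure the difference from the first control. Against the second control array, which belongs to the other set, 1 of the 40 was lower with estradiol.

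**Figure D4:**
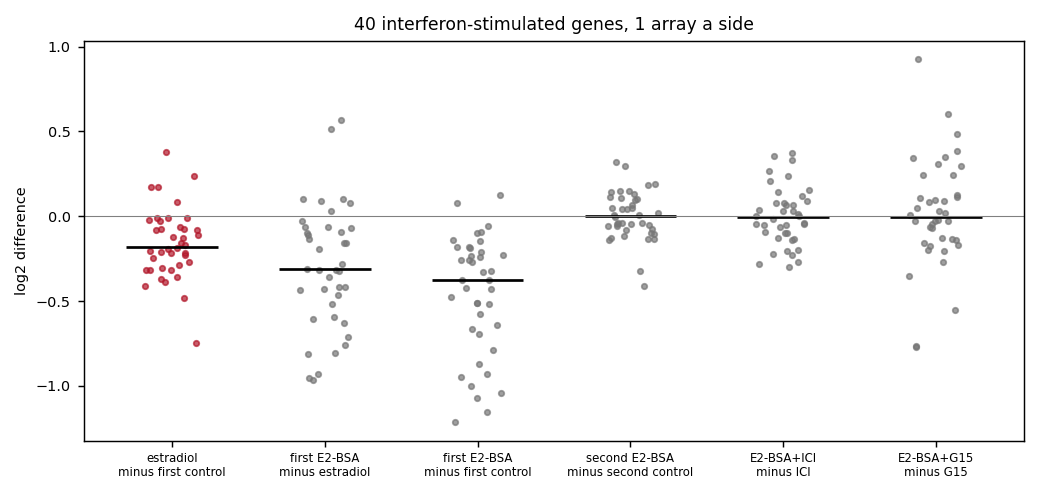
Log2 differences of 40 interferon-stimulated genes (points) with their median (bars) in 6 comparisons with 1 array a side. The medians are -0.18, -0.31 and -0.38 in the 3 comparisons within the set of 3, and between -0.01 and 0.00 in the 3 E2-BSA pairs of the other set.

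The promoters of CXCL10, an interferon-induced gene among the 44, and of IFIT1 and ISG15, described above, show the element by which interferon acts. Capitals mark the core GAAANNGAAA, or TTTCNNTTTC where it lies on the other strand, and overlapping matches in ISG15 join into 1 run. The stretches are chr4:76023448-76023747 on the minus strand, chr10:89392373-89392672 on the plus strand and chr1:1013247-1013546 on the plus strand.
CXCL10: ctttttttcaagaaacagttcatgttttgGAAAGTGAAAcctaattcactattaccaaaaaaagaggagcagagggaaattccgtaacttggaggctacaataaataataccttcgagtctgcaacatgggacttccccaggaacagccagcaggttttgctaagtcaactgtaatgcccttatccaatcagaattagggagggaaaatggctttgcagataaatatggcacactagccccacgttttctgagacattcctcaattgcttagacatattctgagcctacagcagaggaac
IFIT1: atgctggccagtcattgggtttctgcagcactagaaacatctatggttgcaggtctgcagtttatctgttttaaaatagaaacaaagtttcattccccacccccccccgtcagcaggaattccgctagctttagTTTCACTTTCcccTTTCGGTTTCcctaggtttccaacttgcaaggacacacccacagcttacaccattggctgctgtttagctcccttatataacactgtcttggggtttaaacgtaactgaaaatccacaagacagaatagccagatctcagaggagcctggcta
ISG15: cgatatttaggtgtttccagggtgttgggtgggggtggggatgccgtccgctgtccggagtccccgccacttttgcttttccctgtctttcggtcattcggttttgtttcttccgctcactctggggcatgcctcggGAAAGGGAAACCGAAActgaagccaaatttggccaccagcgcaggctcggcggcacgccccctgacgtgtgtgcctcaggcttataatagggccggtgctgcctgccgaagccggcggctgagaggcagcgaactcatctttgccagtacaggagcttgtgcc
The core was found in 22 of the 32 interferon list promoters matched (68.8%), against 996 of all 27305 (3.65%). It was found in 1 of 16 promoters of the genes past 1 downward and in 0 of 17 upward. Measured genes with the core had a median difference of -0.01 between estradiol and first control (52.3% of 453 lower), and those without it -0.01 (51.1% of 14931 lower).

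The other lists on the low side were shifted less. Histone genes had a median of -0.15 with 29 of 41 lower. H2AC6 had 0.22 on the estradiol array, -1.41 on the first E2-BSA array and 1.10 on the first control array, and H1-4 had -0.69 with estradiol, -0.32 with E2-BSA and 0.04 in the first control. Luminal epithelial markers had a median of -0.13 with 18 of 20 lower, and CDH1, the E-cadherin gene, had 0.26 with estradiol, 0.25 with E2-BSA and 0.83 in the first control. Leukocyte markers, included because other cells could have been present, had a median of -0.12 with 12 of 15 lower. The leukocyte list's median value was 0.15 on the estradiol array, 0.27 on the first E2-BSA array and 0.12 on the first control array, and its part in the other shifts was not tested. Centred values do not show whether any leukocyte marker was expressed.

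Cell cycle genes leaned the other way. Of 30 genes of the G1/S step and DNA replication, 24 were higher with estradiol, where 48.3% of all genes were, and the median was 0.12. CCNE2, which encodes the cyclin that starts S phase with CDK2, had 0.95 on the estradiol array, 0.97 on the first E2-BSA array and 0.50 on the first control array, and its 2 probe sets read 0.39 and 0.50. CDC25A, a phosphatase that activates CDK2, had -0.48 with estradiol, -0.39 with E2-BSA and -0.90 in the first control, and its 3 probe sets read 0.29 to 0.49. For both genes the estradiol and E2-BSA arrays were close and the control was lower. The list's median in first E2-BSA minus estradiol was 0.06. CCND1, cyclin D1, the G1 cyclin that estrogen raises in receptor-positive cells, was the lowest of the list at -0.20. Of 31 genes of G2/M and mitosis 23 were higher, with a median of 0.08. Their order of arrays was another, with the estradiol array the highest of the set for 21 of the 31, where it was so for 5912 of all 19775 genes. The G2/M median was -0.09 in first E2-BSA minus estradiol, with 26 lower where 49.8% of all genes were, and 0.02 in first E2-BSA minus first control. In the fit over all arrays the G1/S list had a median of 0.04 and 21 of 30 were higher.

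**Figure D5:**
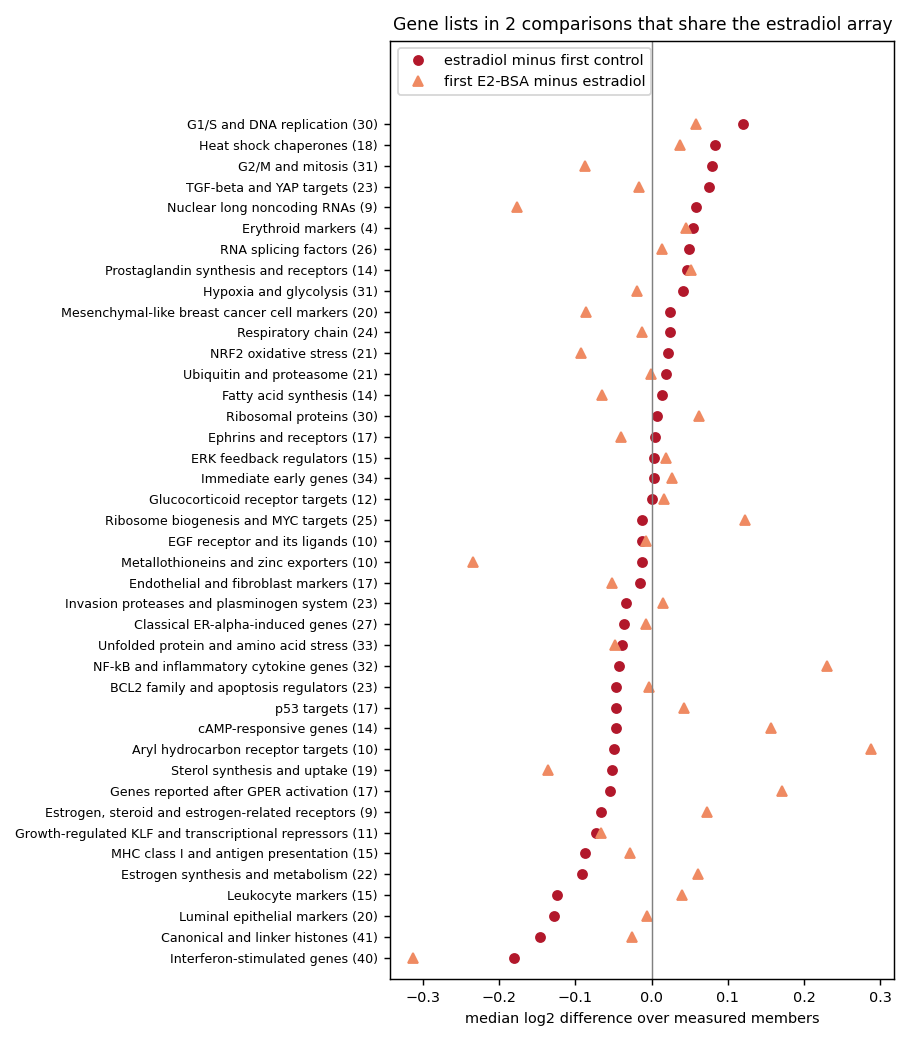
Median log2 difference of each of 41 gene lists, with the number of measured members, for estradiol minus first control (circles) and first E2-BSA minus estradiol (triangles), which share the estradiol array. The interferon-stimulated genes are lowest in both (-0.18 and -0.31), and the NF-kB list lies at -0.04 for estradiol and at 0.23 for E2-BSA over estradiol.

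Free and carrier-bound estradiol were given at the same 1 µM for the same 3 hours, and 1 array of each lies in the set of 3. First E2-BSA minus estradiol had 42 genes past a log2 difference of 1 upward (0.212%) and 48 downward (0.243%), and an SD over genes of 0.27. Among the highest were 2 chemokine genes that draw neutrophils, and SOAT2 (1.42) and ZFPM2 (1.23), which are not chemokine genes, were also past 1. CXCL1 had 2.71 on the first E2-BSA array and 1.10 on the estradiol array, where the first control array had 0.82, and CXCL3 had 1.75 with E2-BSA and 0.29 with estradiol, where the first control had 0.50. Of the 32 NF-kB and inflammatory genes, 25 were higher with E2-BSA than with estradiol, where 50.2% of all genes were higher, and the median was 0.23. The same list had a median of -0.04 in estradiol minus first control, with 14 of 32 higher and CCL20 alone past 1. IL6, the cytokine that NF-kB drives, had 3.00 with E2-BSA, 2.49 with estradiol and 2.49 in the first control. For CXCL1, CXCL3 and IL6 the estradiol array lay nearer to the control than to the E2-BSA array, which was the highest of the set. CCL20 had another order, with the control highest. E2-BSA differs from free estradiol by the BSA carrier as well, and BSA alone was given only to an array outside the set of 3. The median value of the NF-kB list was 0.82 on that BSA array, 0.50 on the first E2-BSA array, 0.32 on the estradiol array and 0.35 on the first control array. It lay between -0.38 and -0.04 on the remaining arrays. The part of the carrier in these differences was not tested.

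In the fit over all arrays, 0 of 19775 genes were called for E2-BSA against estradiol (0%), with 1539 at an unadjusted p under 0.05 and a smallest adjusted p of 0.354. CXCL1 had a fitted difference of 1.33 with a 95% interval from 0.36 to 2.30, and IL6 of 0.43 with an interval from 0.11 to 0.75, but their limma adjusted p-values were 0.497 and 0.498. TNFAIP3, the NF-kB feedback inhibitor A20, had 0.85 with an interval from 0.39 to 1.31 (adjusted p = 0.397). For FOS the fitted difference was -0.07, and its interval from -0.65 to 0.51 leaves room for a difference in either direction. On the low side, ALPP, placental alkaline phosphatase, had 0.14 on the first E2-BSA array and 1.71 on the estradiol array, where the first control array had 2.37. KLRC3, a receptor gene of natural killer cells, had 0.15 with E2-BSA and 1.64 with estradiol, where the first control had 1.62. In both genes the E2-BSA array was the one apart, near the range of the other 8 arrays.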

How the data were processed

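Total RNA of the cell line went onto Affymetrix HG-U133 Plus 2.0 arrays, 11 in all for 9 groups, labelled and hybridised by the manufacturer's protocol per the labels. The deposited values are log2 signals for 54675 probe sets, with the log base taken as 2. The summarisation and normalization are not given in the sources used here. The values had been centred per probe set by the authors before deposit, as read from the values: 51.7% of probe sets hold 2 values that mirror each other around 0 within 1e-05.

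Probe sets with 1 gene symbol in the platform annotation (41091, while 1801 had several, 11721 none and 62 were controls) were averaged per gene. The set of 3 arrays was read from poly-A spike-ins, since the labels name no batch. Promoter sequences came from RefSeq (GRCh38.p14). The pair was described by differences with no test. limma 3.58.1 (R 4.3.3) fitted all 11 arrays with additive treatment terms and a set term, trended eBayes and Benjamini-Hochberg adjustment at 0.05; arrays not known to be separate cultures give p-values that cover only the spread between these arrays. Files were read with pandas 2.3.3 in Python 3.11.15. The fit was tested on simulated data drawn from its own terms, which cannot show whether those terms hold for these arrays. The number of arrays limits the precision.

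Of 950 entries in 41 gene lists, 844 had a value. Genes named are the 12 highest and 12 lowest with 2 or more probe sets differing the same way, the 6 highest and 6 lowest with 1 probe set, 8 each way by which the estradiol or control array stood apart, 6 each way for E2-BSA minus estradiol, 3 per list, 5 each way by smallest p, and 10 fixed genes. IFIT1, ISG15, TNFAIP3, CCND1 and XBP1, list members, ARC and the genes next to the threshold were chosen after their values were seen. The comparison, lists and named genes were chosen with earlier results of these data known. Alternatives covered probe set choice, quantile normalization, centring, thresholds, other controls and left-out arrays.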

Additional observations from a re-analysis of the deposited data

How the results depend on the processing

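No paired analysis was possible because estradiol has 1 array, and the fit with the set as a block (group means with a set term) called 0 genes in each of the 3 contrasts. The 44 genes past a log2 difference of 1 became 0 with only genes of 2 or more probe sets, 0 after quantile normalization, 2 past 1.5, 15 against the mean of first control and first E2-BSA, 166 against the mean of both controls, 1025 against the second control and 1197 against ethanol, both from the other set. The 90 genes of first E2-BSA minus estradiol became 2, 7 and 3 under the first 3 of these and 1096 with the second E2-BSA array. The 7 genes at which the estradiol array stood apart became 0 under each of those 3. Quantile normalization used all 11 arrays, whose SD over genes was 0.37 to 0.39 in the set of 3 and 0.18 to 0.25 in the other. SOST and CXCL10 reversed against the second control, to 0.47 and 1.05, and the sign turned there for 67 of 193 named genes and 7923 of all 19775. The 5 lists beyond 0.1 became 33 against the second control and 8 without _x_at and _s_at probe sets. Against the second control, the 35 lower interferon genes became 1, the 24 higher G1/S genes 6, the 18 lower luminal markers 8 and the 12 lower leukocyte markers 3; without those probe sets, 9 of 13 measured luminal markers (median -0.09) and 19 of 30 histones (median -0.14, -0.15 with all probe sets) were lower, so fewer members were counted. The 2 genes called for estradiol against ethanol became 0 with group means, with or without the set, with centred arrays and without those probe sets, 3 without trend, 3 without the E2-BSA+G15 array, and between 0 and 1 after dropping any 1 of the control and E2-BSA arrays. For these differences the cause was not tested. The other contrasts called 0 genes under every alternative run. Signal over background could not be judged from centred values.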
